A study of Mus musculus with 3 samples.

Results

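The genes described are 10 that encode subunits of the transcription factor NF-κB or proteins of the IκB family. They were chosen by symbol, as rows named Nfkb1, Nfkb2, Rel, Rela, Relb, Nfkbia, Nfkbib, Nfkbie, Nfkbid or Nfkbiz, among 37646 genes listed for each library. All 10 were found, each with 1 row. The material was 3 lymphomas from the spleens of pBIC mice, which are of strain C57BL/6 and are used to model ABC-DLBCL, diffuse large B cell lymphoma of the activated B cell type. The mice had both copies of p53 and of Blimp1 floxed (p53F/F and Blimp1F/F), an IKK2 gene that is always active once Cre removes its stop cassette (IKK2castopF/stopF), and Cre driven by the Cg1 immunoglobulin locus (Cg1Cre/+). Cre from that locus acts in B cells that have begun to transcribe it. Cells positive for B220 and GFP were sorted from spleens of moribund mice after dead cells were excluded, and their polyadenylated RNA was sequenced, 1 library for each tumour. The 3 libraries form 1 group, numbered as tumours 1, 2 and 3, and the age of the mice is not given in the sources used here. Normal germinal centre B cells, named in the design as controls, were not analysed here, so no value below is a difference between lymphoma and normal cells.

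NF-κB acts as dimers formed from a family of 5 related subunits. In resting B cells the dimers are held in the cytoplasm by IκB proteins, which cover their nuclear import signals. The IKK complex phosphorylates the classical inhibitors IκBα, IκBβ and IκBε, which are then ubiquitinated and degraded, and the freed dimers enter the nucleus. Several NF-κB and IκB genes are themselves targets of NF-κB, with IκBα as the textbook case of negative feedback. A further class, the nuclear IκB proteins such as IκBNS and IκBζ, binds dimers on DNA and can activate or repress transcription. An active IKK2 allele enters this pathway at the kinase step, above the classical inhibitors.

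The promoters are shown first because several of these genes are known to be regulated by their own products. The table of RefSeq promoters used here (build GRCm38.p6) held at least 1 window, from 250 bases before to 50 after a transcription start, for 7 of the 10 genes, namely Nfkb2, Rel, Rela, Nfkbia, Nfkbib, Nfkbie and Nfkbid. Both strands were searched for the κB consensus, a degenerate motif of 10 bases bound by NF-κB dimers, and for a looser motif, GGG and CC with any 5 bases between them, which covers every match of the consensus. The κB consensus was found for 5 of the 7 genes and for 5.14% of 27025 genes with a window. The looser motif was found for 6 of the 7 genes and for 53.5% of all genes. By window, 7 of 11 windows of these genes held the consensus, against 4.51% of 32851 windows in all. Nfkb2 and Nfkbid have 3 windows each, and 2 overlapping windows of Nfkb2 share 1 match, so these windows are not independent. Rela held the looser motif alone, and neither motif was in the Nfkbib window. A match is a description of the sequence, and binding was not measured.

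The 250 bases before the start of Nfkbia (chr12:55492648-55492897, reverse strand), Rel (chr11:23770970-23771219, reverse strand) and Nfkbie (chr17:45555450-45555699, forward strand) are printed 5′ to 3′ on the strand of the gene, with the κB consensus in capitals. These 3 are shown because they are the most abundant inhibitor, the least abundant subunit and the inhibitor that differed most between tumours among the classical ones.
Nfkbia: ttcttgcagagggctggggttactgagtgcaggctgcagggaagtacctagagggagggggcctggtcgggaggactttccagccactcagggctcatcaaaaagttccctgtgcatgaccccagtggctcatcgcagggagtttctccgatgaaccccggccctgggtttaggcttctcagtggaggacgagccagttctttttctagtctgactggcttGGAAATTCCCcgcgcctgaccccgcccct
Rel: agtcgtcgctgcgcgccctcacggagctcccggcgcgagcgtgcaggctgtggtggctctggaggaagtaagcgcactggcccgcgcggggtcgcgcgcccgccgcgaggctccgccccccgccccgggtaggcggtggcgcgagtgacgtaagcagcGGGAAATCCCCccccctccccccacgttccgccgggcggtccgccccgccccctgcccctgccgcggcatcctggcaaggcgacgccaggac
Nfkbie: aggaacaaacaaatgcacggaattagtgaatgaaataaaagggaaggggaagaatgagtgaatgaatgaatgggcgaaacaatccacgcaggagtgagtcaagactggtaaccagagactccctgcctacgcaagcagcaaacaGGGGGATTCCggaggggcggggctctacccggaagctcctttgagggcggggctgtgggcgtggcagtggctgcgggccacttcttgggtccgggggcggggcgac
The last base of the match lay 20 bases before the start in Nfkbia, 82 in Rel and 97 in Nfkbie. In Rel, overlapping matches on both strands made 1 run of 11 bases, as they did in the distal site of Nfkb2.

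The matches of Nfkb2 and Nfkbid are printed with their flanks only, since these genes have several annotated starts. The first pair of Nfkb2 is from the most upstream of 3 RefSeq starts of Nfkb2 (chr19:46304689-46304717 and chr19:46304716-46304745, forward strand), with matches ending 29 and 2 bases before it. The other two Nfkb2 sites (chr19:46305449-46305478 and chr19:46305695-46305724, forward strand) are from the windows of its later starts. The Nfkbid pair is from the middle of 3 Nfkbid starts (chr7:30422170-30422199 and chr7:30422215-30422244, forward strand), with matches ending 217 and 172 bases before it.
Nfkb2, distal: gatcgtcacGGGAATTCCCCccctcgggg
Nfkb2, proximal: ggggccgaaaGGGGCTTTCCcggctggagc
Nfkb2, later starts, first: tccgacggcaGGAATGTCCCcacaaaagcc
Nfkb2, later starts, second: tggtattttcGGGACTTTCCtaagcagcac
Nfkbid, distal: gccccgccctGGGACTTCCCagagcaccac
Nfkbid, proximal: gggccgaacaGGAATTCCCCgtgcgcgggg

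All 10 genes were well expressed in every tumour. Counts ranged from 951 for Nfkbiz in tumour 2 to 6961 for Nfkbia in tumour 2, so that the 95% Poisson interval of the lowest count reached 6.56% above it. These intervals cover counting error only. To compare tumours for 1 gene, levels are given in CPM, that is, counts per library of equal size after TMM normalisation. To compare genes they are given as TPM, in which counts are first divided by the union of annotated exons. The median over the 10 genes was 123 TPM, against 22.4 TPM over the 11478 genes tested. Their summed level was 1942, 1823 and 1905 CPM in tumours 1, 2 and 3.

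Library totals were 15022902 to 15141009 counts. The sort was checked with marker lists. All 8 B cell markers exceeded 10 CPM in every tumour, led by Ms4a1 (CD20) at 583 ± 333 CPM (SD, n = 3), and 7 of 8 were highest in tumour 1, with summed levels of 4439, 2548 and 2558 CPM in tumours 1, 2 and 3. Of 8 T cell markers 1, Cd2, exceeded 10 CPM in every tumour, and the list summed to 64.8 to 92.1 CPM. Macrophage markers summed to 156, 200.4 and 151 CPM, mostly Cd68 (135 ± 9.97 CPM), and 3 of 9 reached 1 CPM in every tumour. Neutrophil markers, of which 0 of 8 reached 1 CPM in every tumour, summed to 58.4, 21.4 and 3.60 CPM. Erythroid markers (2 of 4 at 1 CPM, led by Hbb-bs with 2.59, 8.70 and 61.7 CPM) summed to 5.12, 18.8 and 111 CPM. Dendritic cell markers (3 of 7 at 1 CPM) summed to 21.5 to 44.2 CPM and natural killer markers (2 of 5) to 6.41 to 28.3 CPM. Stromal and endothelial markers summed to 0.523 to 2.59 CPM, with 0 of 4 at 1 CPM, and Cd209a and Col3a1 had no count. In such bulk libraries fewer cells of a type and less RNA per cell cannot be told apart.

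**Figure D1:**
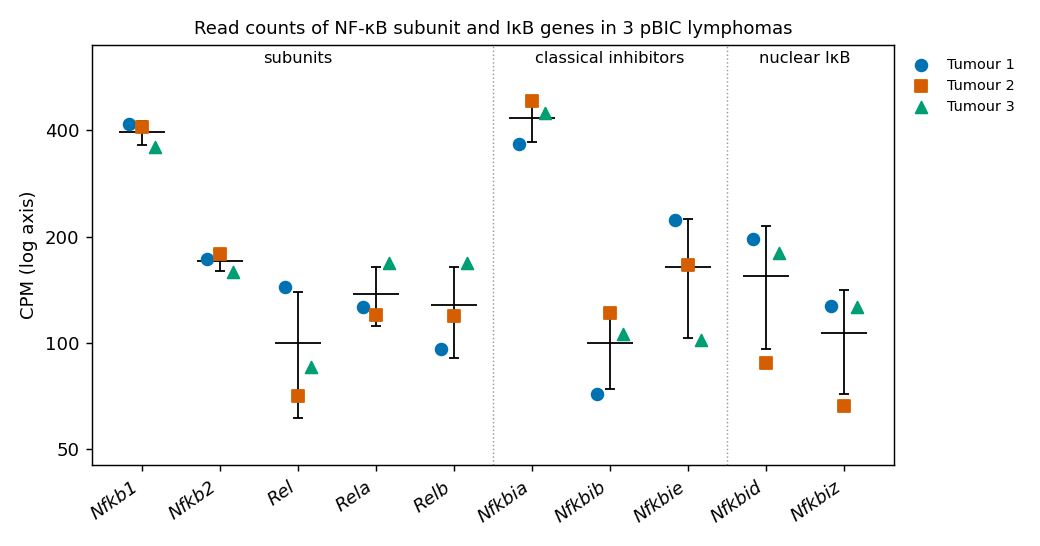
Read counts of each gene in CPM (log axis) in tumours 1, 2 and 3 (coloured symbols), with the mean (wide bar) and SD (error bar) over the 3 tumours. Nfkb1 and Nfkbia lie at 360 CPM or more in every tumour, and the other 8 genes lie between 66.2 and 223 CPM.

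Nfkb1 encodes the p105 precursor, which is processed to p50, and its transcript was the most counted of the subunits. It had 418, 408 and 360 CPM in tumours 1, 2 and 3, or 395 ± 31.0 CPM (SD, n = 3). Nfkb2 encodes the p100 precursor, which is processed to p52 when the alternative pathway is active. It had 173, 178 and 159 CPM, or 170 ± 9.84 CPM. Both precursor genes were nearly level across the tumours, with 1.16-fold and 1.12-fold between the highest and the lowest.

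The 3 genes whose products carry a transactivation domain differed more between tumours. Rel encodes c-Rel, the subunit best known for its role in lymphocytes, and had 145, 70.8 and 85.8 CPM in tumours 1, 2 and 3, or 100.3 ± 39.0 CPM. Tumour 1 thus stood above the other two, with 2.04-fold between the highest and the lowest. Rela encodes p65, the subunit present in most cell types, and had 126, 120 and 168 CPM, or 138 ± 26.2 CPM. Relb, whose product pairs mainly with p52 and p50, had 95.95, 119 and 168 CPM, or 128 ± 36.9 CPM. Rela and Relb were both highest in tumour 3, by 1.40-fold and 1.75-fold over the lowest tumour. The B cell markers, like Rel, were highest in tumour 1, and erythroid markers, like Rela and Relb, were highest in tumour 3. The part of these shifts in the levels of the subunits was not tested.

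Nfkbia encodes IκBα, the fast feedback inhibitor, and had 365, 484 and 449 CPM in tumours 1, 2 and 3, or 433 ± 61.2 CPM. Nfkbib encodes IκBβ and had 71.7, 122 and 106 CPM, or 99.8 ± 25.6 CPM. Both were lowest in tumour 1 and highest in tumour 2, over ranges of 1.33-fold and 1.70-fold. Nfkbie encodes IκBε, an inhibitor prominent in B cells, and had 223, 167 and 102 CPM, or 164 ± 60.7 CPM. Its highest level was in tumour 1 and its lowest in tumour 3, 2.19-fold apart. Neutrophil markers fell in the same order of tumours, with the sums given above, as did Ms4a1 (923, 570 and 256 CPM). Their part in the level of Nfkbie was not tested.

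The nuclear IκB genes were both lowest in tumour 2. Nfkbid encodes IκBNS, which is needed for several B cell subsets, and had 197, 87.7 and 180 CPM in tumours 1, 2 and 3, or 155 ± 59.1 CPM. Nfkbiz encodes IκBζ, a coactivator of secondary inflammatory genes, and had 127, 66.2 and 127 CPM, or 107 ± 35.1 CPM. Tumours 1 and 3 were close to each other for both genes, and tumour 2 lay 2.25-fold below the highest for Nfkbid and 1.92-fold below it for Nfkbiz. Macrophage markers had their highest sum in tumour 2, through Lyz2 (7.58, 56.2 and 4.05 CPM, edgeR adjusted p = 0.0372 in the variability test described next). Of the 9 macrophage markers 6 were highest in tumour 2, while Cd68, the most abundant, was lowest there (139, 124 and 142 CPM). The B cell markers Pax5, Ptprc, Cd22 and Blk were also lowest in tumour 2, and the other B cell markers were lowest in tumour 3. The part of these markers in the levels of Nfkbid and Nfkbiz was not tested.

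**Figure D2:**
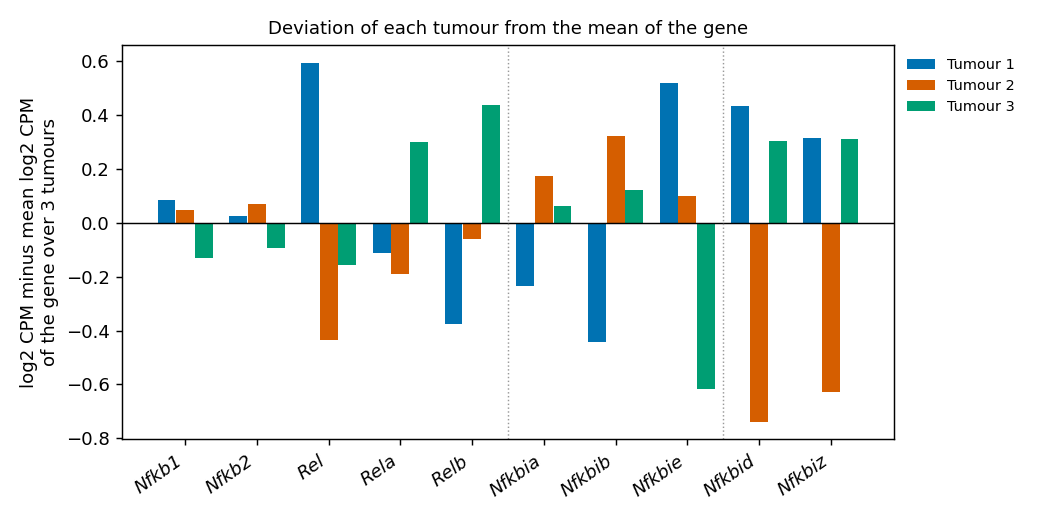
Level of each gene in each tumour as log2 CPM minus the mean log2 CPM of that gene over the 3 tumours. Nfkbid and Nfkbiz share 1 pattern, low in tumour 2 at -0.74 and -0.63, while Rel and Nfkbie are highest in tumour 1 at 0.59 and 0.52.

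Whether a gene varied more between the tumours than genes of similar abundance was tested with an intercept-only edgeR quasi-likelihood fit over all genes, with Benjamini-Hochberg adjustment and a threshold of 0.05. All 10 genes passed the filter on low counts. Of them, 0 passed the threshold, where 0.139% of the 11478 genes tested did. At an unadjusted p below 0.05 there were also 0 of the 10, against 6.27% of all genes, and limma-voom and a negative binomial goodness of fit each called 0 of the 10. The smallest p was that of Nfkbid, at 0.0821 and 0.901 after adjustment, followed by Nfkbie at 0.116 and 0.957. The largest was that of Nfkb2, at 0.946 and 0.999. The test rests on 3 libraries, which the labels do not state to be unrelated animals, and a p above the threshold does not show that a gene was level.

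The size of the differences was close to that over all genes tested and larger than that over the more abundant genes, a gap that was not tested. The median ratio of the highest to the lowest tumour was 1.73 over the 10 genes, 1.64 over all genes tested and 1.5 over the 4507 genes with a mean of at least 50 CPM. The ratio was above 2 for 3 of the 10 genes, Rel, Nfkbie and Nfkbid, and for 28.7% of all genes and 14.4% of those above 50 CPM. Tumour 1 had the highest level of 5 of the 10 genes and of 32.4% of all genes. Tumour 2 had it for 3 of the 10 and 35.8% of all, and tumour 3 for 2 of the 10 and 31.8% of all.

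**Figure D3:**
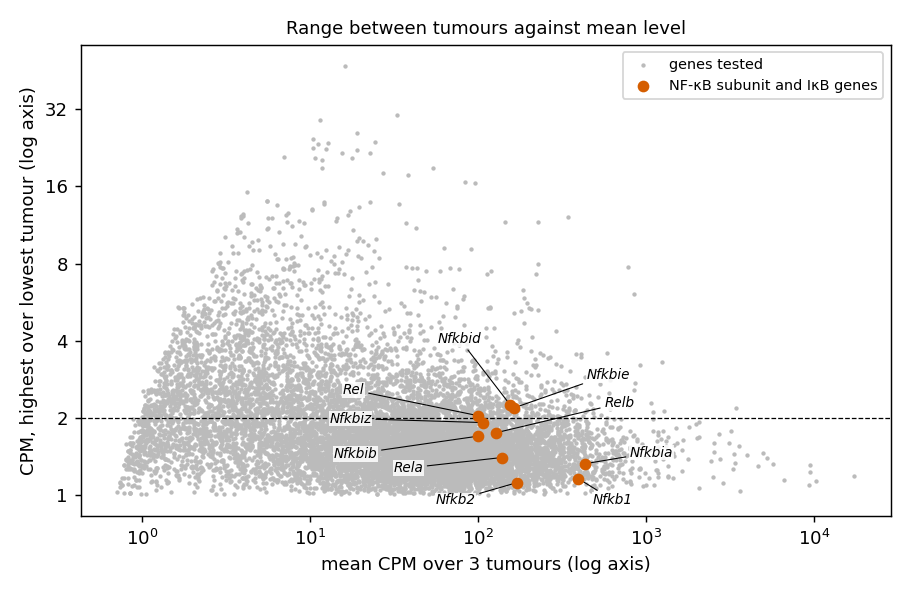
Ratio of the CPM in the highest tumour to that in the lowest against mean CPM (both log axes), for all 11478 genes tested (grey) and the 10 NF-κB subunit and IκB genes (orange). The dashed line marks a ratio of 2, which Rel, Nfkbie and Nfkbid exceed, and the 10 genes lie within the cloud of genes of like abundance.

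Per length, Nfkbia was the most abundant of the 10 transcripts by a wide margin. It had 739, 822 and 841 TPM in tumours 1, 2 and 3, or 801 ± 53.9 TPM (SD, n = 3), above 99.0% of the 11733 genes that reached 1 TPM in every tumour. Nfkbib had 108, 153 and 147 TPM, and the difference in log2(TPM + 1), Nfkbia minus Nfkbib, was 2.56 ± 0.18 (5.90-fold), positive in 3 of 3 tumours. Nfkbie had 239, 149.6 and 101 TPM, and the difference from it was 2.38 ± 0.71 (5.19-fold), also positive in 3 of 3. With 3 tumours the two-sided exact sign-flip test cannot give a p below 0.25, and all 7 differences computed between these genes gave that value, so none can be called. Among the classical inhibitors, Nfkbia held 68.1%, 73.1% and 77.2% of the summed TPM in tumours 1, 2 and 3. The share of Nfkbie was 22.0%, 13.3% and 9.25%, and that of Nfkbib was 9.92%, 13.6% and 13.5%. The summed TPM of the 3 inhibitors was 1086, 1125 and 1089, so that the share of Nfkbie changed within a nearly level total.

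Among the subunits, Rela had 134, 107 and 165 TPM, Nfkb2 had 123, 106 and 105 TPM, and Nfkb1 had 113, 92.5 and 90.1 TPM. Relb had 80.6, 83.8 and 131 TPM. Rel was the least abundant of the 10 genes, with 63.1, 25.9 and 34.7 TPM, and held 12.3%, 6.24% and 6.60% of the summed subunit TPM. The level of Rel was below that of Rela in 3 of 3 tumours, with a difference of -1.08, -2.00 and -2.22 in log2(TPM + 1) and a mean of -1.76 ± 0.61 (SD, n = 3), 3.40-fold. The difference was smallest in tumour 1, where Rel was highest. Without division by length the mean difference was -0.51, and in tumour 1 Rel was above Rela (144.5 against 126.3 CPM). Relb was also below Rela in 3 of 3 tumours, by -0.47 ± 0.23. The sign of that difference depends on length, since it was 0.16 when counts were divided by the longest protein-coding transcript.

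Nfkbid had 274, 102 and 232 TPM, and Nfkbiz had 82.6, 36.0 and 76.2 TPM. The difference between them was 1.72, 1.48 and 1.59 in log2(TPM + 1), a mean of 1.6 ± 0.12 (SD, n = 3), 3.03-fold. The SD of this difference was smaller than that of either gene over the tumours, which was 0.76 for Nfkbid and 0.65 for Nfkbiz on the same scale. The 5 IκB genes, nuclear IκB genes included, together exceeded the 5 subunit genes in every tumour. They had 1443, 1263 and 1397 TPM, against 514, 415 and 525 TPM for the subunit genes. Of this, the 3 classical inhibitor genes had 1086, 1125 and 1089 TPM, and nuclear IκB proteins are not only inhibitors. The mean difference between the 5 IκB and the 5 subunit genes, called inhibitors minus subunits below, was 1.5 ± 0.10, 2.83-fold. With no division by length it was 0.04, and with longest transcripts 0.98.

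**Figure D4:**
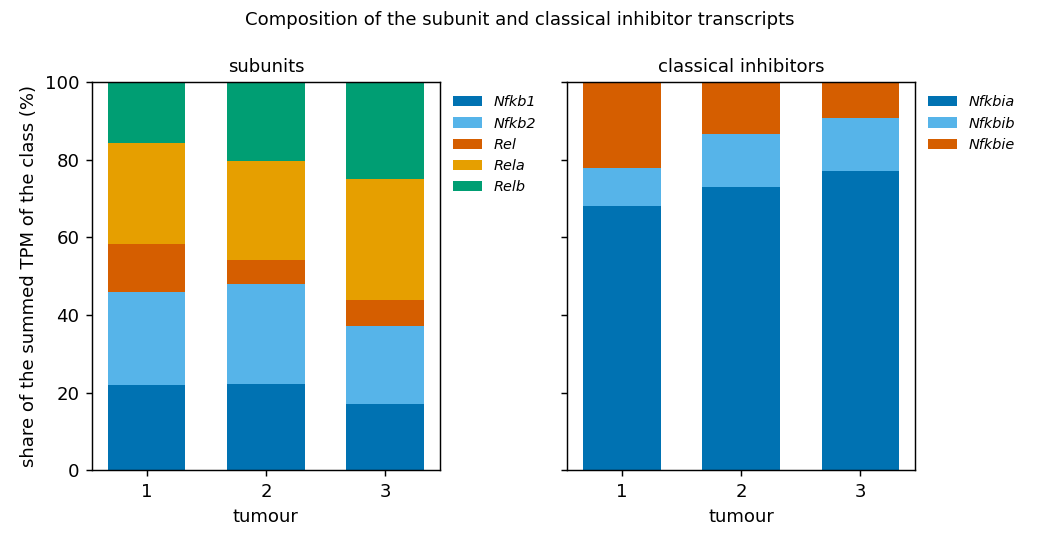
Share of each gene in the summed TPM of the 5 subunit genes (left) and of the 3 classical inhibitor genes (right), in percent, for each tumour. Nfkbie takes 22.0% of the inhibitor total in tumour 1 and 9.25% in tumour 3, and Rel takes 12.3% of the subunit total in tumour 1 and 6.24% in tumour 2.

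In order of mean log2(TPM + 1) the genes ran Nfkbia, Nfkbid, Nfkbie, Nfkbib, Rela, Nfkb2, Nfkb1, Relb, Nfkbiz and Rel. The step from Nfkbia to Nfkbid was 2.09 ± 0.81 (SD, n = 3) and held in 3 of 3 tumours. The steps from Nfkbid to Nfkbie (0.28 ± 0.87), Nfkbie to Nfkbib (0.19 ± 0.86), Nfkbib to Rela (0.02 ± 0.45), Rela to Nfkb2 (0.26 ± 0.34) and Nfkb1 to Relb (0.03 ± 0.52) were smaller than their spread. The steps from Nfkb2 to Nfkb1 (0.18 ± 0.05) and from Nfkbiz to Rel (0.65 ± 0.40) exceeded their spread and held in 3 of 3 tumours. The step from Relb to Nfkbiz (0.64 ± 0.63) was about as large as its spread and held in 2 of 3. Of all 45 pairs of genes, 31 had the same order in every tumour.

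The place of Nfkb1 in this order rests on the length assigned to it. The union of its annotated exons is 12061 nt, while its longest transcript is 4149 nt. With the longest transcript the level of Nfkb1 was 225 ± 29.5 TPM in place of 98.6 ± 12.6 TPM, and it followed Nfkbia as the second most abundant of the 10 genes. The difference Nfkb1 minus Nfkb2 was -0.18 ± 0.05 with union lengths and 1.10 with longest transcripts, so its sign is not settled here. Nfkbia stayed first and Rel last under each of the 3 definitions of length.

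**Figure D5:**
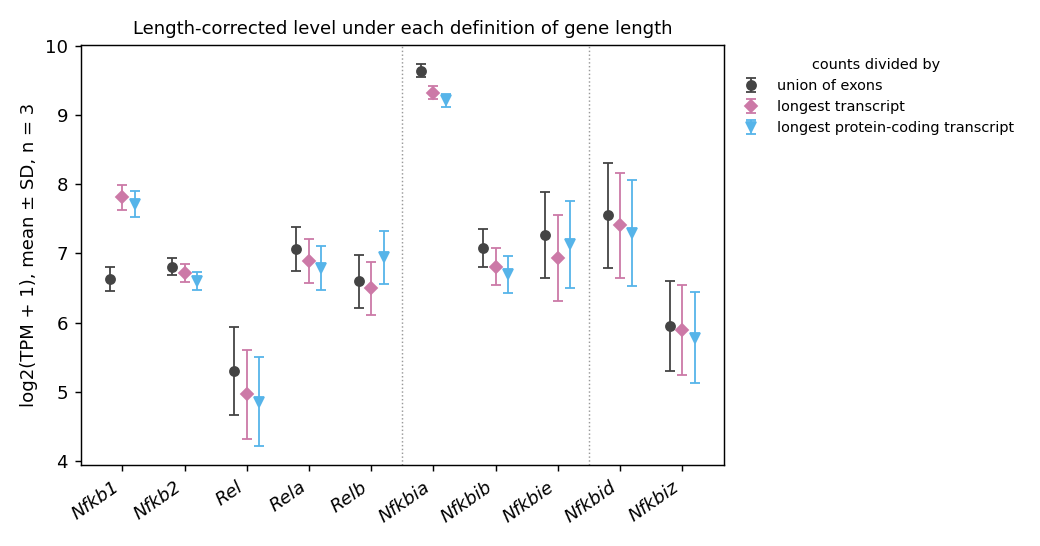
Level of each gene as log2(TPM + 1), mean ± SD over 3 tumours, when counts are divided by the union of exons, the longest transcript or the longest protein-coding transcript. Nfkb1 moves from 6.63 to 7.81 between the first and the second, Nfkbia stays highest and Rel lowest.

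Coordinates below are those of GENCODE release M21 (GRCm38). The 10 genes lie on 7 chromosomes. Nfkb1 (ENSMUSG00000028163.17) spans chr3:135584655-135691547, Rel (ENSMUSG00000020275.9) chr11:23736847-23770970 and Nfkbia (ENSMUSG00000021025.8) chr12:55489410-55492647, all on the reverse strand. Nfkb2 (ENSMUSG00000025225.15) spans chr19:46304320-46312385 and Rela (ENSMUSG00000024927.8) chr19:5637483-5648130, both on the forward strand. Relb (ENSMUSG00000002983.17) spans chr7:19606217-19629438 and Nfkbib (ENSMUSG00000030595.15) chr7:28758251-28767512, both on the reverse strand. Nfkbid (ENSMUSG00000036931.15) spans chr7:30421732-30428746 and Nfkbie (ENSMUSG00000023947.8) chr17:45555703-45563169, both on the forward strand. Nfkbiz (ENSMUSG00000035356.17) spans chr16:55811375-55838899 on the reverse strand. Nfkb2 shares 299 exonic bases with Psd and 531 with the non-coding gene AC114539.1, and Nfkbib shares 42 with Sirt2 and 314 with Ccer2, all on the opposite strand. Use of strand in counting is not given in the sources used here, so reads in those bases could have gone to either gene or to neither.

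The genes above and around the subunits were expressed throughout. Of 8 genes of the IKK complex and its activating kinases, all 8 exceeded 10 CPM in every tumour. Of these, 0 passed the edgeR variability test, which 0.139% of all genes tested passed. Per length their 3 highest were Chuk (IKK1) at 78.7 ± 13.9 TPM (SD, n = 3), the adaptor Tab2 at 66.8 ± 21.4 TPM and Ikbkb (IKK2) at 59.1 ± 17.3 TPM. Without division by length Ikbkb was the highest of them, at 371 ± 79.5 CPM against 134 ± 26.9 CPM for Chuk and 134.5 ± 32.4 CPM for Tab2. Their order therefore depends on length, and other lengths were not tried for these lists. Ikbkb had 438, 283 and 392 CPM in tumours 1, 2 and 3, counts that cannot separate the engineered allele from the endogenous gene. Of 17 adaptors all 17 exceeded 10 CPM and 0 passed, led by Rbck1, a part of the linear ubiquitin ligase, at 206 ± 27.1 TPM, Birc3 (cIAP2) at 154 ± 39.5 TPM and Irak1 at 134 ± 31.7 TPM. Of 14 brakes on the pathway 12 exceeded 10 CPM and 0 passed, led by the deubiquitinase genes Otulin at 125 ± 21.3 TPM and Tnfaip3 (A20) at 117 ± 59.7 TPM and by Tnip1 at 116 ± 15.1 TPM. Of 8 genes of the ubiquitin ligase machinery that acts on IκB and p100 all 8 exceeded 10 CPM and 0 passed, led by Cdc34 at 259 ± 70.7 TPM, Skp1a at 174 ± 31.0 TPM and Cul1 at 119 ± 13.5 TPM. At an unadjusted p below 0.05 these 4 lists held 0, 1, 1 and 0 of their 8, 17, 14 and 8 genes, against 6.27% of all genes tested. The genes were Traf6 (58.1, 42.4 and 128 CPM, named after its values were seen) and Tnfaip3. Bcl3, which encodes a further nuclear IκB protein, had 74.7, 80.1 and 99.8 CPM and 103 ± 17 TPM, between Nfkbiz and Nfkbid among the nuclear IκB genes per length.

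NF-κB target genes were tallied from a list of 30. It includes Tnfaip3, Birc3 and Bcl3, counted above as well. In every tumour, 19 of the 30 reached 10 CPM and 26 reached 1 CPM. The median level was 42.6 TPM, and 0 of the 27 tested passed the edgeR variability test, against 0.139% of all genes tested. The highest per length were Ltb (lymphotoxin β) at 1027 ± 187 TPM, the AP-1 gene Junb at 356 ± 105 TPM and Cd83, a marker of B cell activation, at 304 ± 113 TPM. Ltb was thus above Nfkbia in level, and Nfkbia was above the other 29. The median ratio of the highest to the lowest tumour was 1.83 over this list, against 1.64 over all genes tested, and 11 of the 27 exceeded 2, as did 28.7% of all genes tested and 14.4% of those above 50 CPM.

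Nfkbid, the gene with the widest range of the 10, was compared with 73 genes of these lists that had counts in every tumour. Likeness was the Euclidean distance between the 3 values of log2 CPM, each centred on the mean of the gene. Among the 5 nearest were Tnfaip3 (distance 0.23), the adaptor gene Traf3 (0.29), the plasma cell and ABC regulator Irf4 (0.30) and Map3k14 (0.31), which encodes the kinase NIK. These 4 were lowest in tumour 2, which follows from their choice by likeness to Nfkbid. For example, Tnfaip3 had 390, 149 and 287 CPM and Irf4 had 278, 107 and 190 CPM. Among the 10 genes themselves the nearest pair was Nfkb1 and Nfkb2 (0.07), both nearly level, followed by Nfkbid and Nfkbiz (0.16). With 3 points per gene such distances are a description only.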

How the data were processed

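Each deposited file holds unnormalized counts of reads for every gene of 1 tumour (single-end sequencing of oligo-dT-selected RNA, per the labels). The submitters' processing notes name FastQC, STAR 2.5.2b, featureCounts 1.6.0 and mm10. The settings, annotation release and use of strand were not given in the sources used here. CPM used TMM factors from edgeR 4.0.16 in R 4.3.3 (1.023, 0.9595 and 1.018), relative to the counts of the genes tested. A gene with no count could hold up to 3 counts, or 0.194 to 0.209 CPM. TPM used union exon lengths of GENCODE M21 (37536 of 37646 identifiers matched when versions were ignored). The variability test divided the residual deviance of an intercept-only fit (2 degrees of freedom) by the robust prior variance (15.8 degrees of freedom), one-sided, for genes that passed filterByExpr. Alternatives used DESeq2 1.42.0 size factors, limma 3.58.1, other filters and lengths, and each tumour left out. The 10 genes, the lists and the tests were chosen with earlier results of these data known. From each pathway list the 3 genes with the highest mean TPM, from each marker list the gene with the highest mean CPM, and any gene past the threshold could be named, with the 5 genes nearest to the most variable member, of which 1 is not reported here.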

Additional observations from a re-analysis of the deposited data

How the results depend on the processing

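The count of the 10 genes past the variability threshold was 0 in every setting run, with edgeR, the negative binomial goodness of fit and limma-voom, under each scaling and filter, and from 0 to 0 when each tumour was left out. The smallest adjusted p among them ranged from 0.843 (library totals, Nfkbid) to 0.986 (without tumour 3). At an unadjusted edgeR p below 0.05, 1 of the 10 passed without tumour 1 (Nfkbid, 0.0467), beside 654 of all 11669 genes tested. Without tumour 2, 1 of the 10 passed (Nfkbie, 0.0396), beside 606 of all 11941. Over all genes the calls, 16 by the test used, were 15 with DESeq2 size factors, 0 with library totals, 0 with a mean count of 10 as the filter, 164 of 25500 with no filter, 94 by goodness of fit, 8 by limma-voom, and 0, 0 and 11 without tumour 1, 2 and 3. Differences in log2(TPM + 1) moved with length. With the longest annotated transcript, Nfkb1 minus Nfkb2 reversed to 1.10 and inhibitors minus subunits moved to 0.98. With the longest protein-coding transcript, Nfkb1 minus Nfkb2 reversed to 1.11, Relb minus Rela reversed to 0.16 and inhibitors minus subunits moved to 0.91. With no division by length, Nfkb1 minus Nfkb2 reversed to 1.21, and the others moved to -0.51 (Rel minus Rela), -0.13 (Relb minus Rela), 2.13 (Nfkbia minus Nfkbib), 1.46 (Nfkbia minus Nfkbie), 0.51 (Nfkbid minus Nfkbiz) and 0.0401 (inhibitors minus subunits). The gene lengths themselves make these shifts. Leaving out each tumour gave -2.11 to -1.54, -0.54 to -0.34, -0.21 to -0.16 (Nfkb1 minus Nfkb2), 2.46 to 2.64, 2.04 to 2.75, 1.54 to 1.66 and 1.45 to 1.55 in the order of the report's 7 differences (Rel minus Rela, Relb minus Rela, Nfkb1 minus Nfkb2, Nfkbia minus Nfkbib, Nfkbia minus Nfkbie, Nfkbid minus Nfkbiz, inhibitors minus subunits). A pseudocount of 0.1 and TPM limited to genes whose mean count reached 10 moved none of the 7 by as much as 1 SD, and the CPM of each gene stayed within 1 SD under both other scalings. No paired analysis was possible because there is 1 group. Depth did not limit these genes, whose lowest count was 951.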

Other observations

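Among the 27 NF-κB target genes tested, 4 had an unadjusted p below 0.05 in the edgeR variability test, against 6.27% of all genes tested, with adjusted p from 0.526 to 0.783, and they are named here after their values were seen. Lta, which encodes lymphotoxin α, had 23.7, 47.4 and 11.4 CPM in tumours 1, 2 and 3. Ebi3, which encodes a shared cytokine subunit, had 14.2, 19.3 and 2.94 CPM. Both were lowest in tumour 3, as were 33.0% of all genes tested. Rela and Relb were highest in that tumour, and a relation between these genes was not tested. The cell cycle gene Ccnd2 had 354, 192 and 104 CPM, in the same order of tumours as Nfkbie, and Tnfaip3, given above, was lowest in tumour 2 like Nfkbid. Il12b had no count in any tumour.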
